A study of Homo sapiens with 4 samples.

Results

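The genes examined were 9 members of the PDGF (platelet-derived growth factor) and FGF (fibroblast growth factor) signalling systems: the ligands PDGFC, PDGFD, FGF2, FGF5 and FGF7 and the receptors PDGFRA, PDGFRB, FGFR1 and FGFR2. Each matched 1 of the 20163 protein-coding genes of GENCODE release 44 mapped to hg19. The intervals assigned to a member were those that overlapped its gene body plus 50 kb on either side, a stretch called its window, by at least 1 bp. They were 74 of the 58827 intervals in the SOX2 and SOX2-DBD lists, with exact duplicate rows counted once.

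The data were CUT&RUN peak lists from BJ cells, a human fibroblast line established from foreskin, in a study of how pioneer transcription factors reach compacted chromatin. V5-tagged full-length SOX2 or its V5-tagged DNA-binding domain alone (SOX2-DBD) was expressed ectopically for 48 h, and an antibody to the V5 tag directed the nuclease. The labels give 4 samples in 2 groups of 2, and each list belonged to replicate 1 of its group. No untreated or untagged sample was analysed here, the promoter that drove each protein is not given in the sources used here, and the lists hold no expression values against which the fibroblast label could be checked.

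Intervals fell into 3 classes: SOX2-only, shared (listed with the same positions for SOX2 and SOX2-DBD) and SOX2-DBD-only. The whole series held 43607, 14300 and 920 of these, so 24.7% of the SOX2 intervals were shared. Total signal is the authors' value for each interval, its normalization is unknown, and the group in which a shared interval was measured is not stated. With 1 list per group there was no replicate spread to test against, so every difference below is a description without a p-value, and the Wilson 95% confidence intervals on shares cover counting error over intervals only. Sequencing depth is unknown, and an absent interval means that no region passed the caller's threshold, not that no protein was bound.

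PDGF and FGF ligands are secreted proteins that bind receptor tyrosine kinases on the cell surface, and the paired receptors then phosphorylate each other and switch on the RAS-MAPK and PI3K pathways. PDGF receptors drive proliferation and migration of fibroblasts and other mesenchymal cells. FGF ligands signal among mesenchymal cells and from mesenchyme to epithelium, and FGF2 is also added to cultures of human pluripotent stem cells. SOX2 is a pioneer transcription factor, and its DNA-binding domain is an HMG box that bends DNA at sequences around ACAATG.

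The sequences below are the 200 bases at the centre of the interval of highest total signal of 5 members, taken from the shared class where the member had one and otherwise from the SOX2-only class. They are shown so that the DNA under these intervals can be read, although at FGF2 and FGF5 SOX2-only intervals had higher totals, and they are read 5′ to 3′ on the plus strand of hg19. Capitals mark matches, on either strand, to the SOX core motif (ACAAAG or ACAATG) or to the AP-1 motif (TGACTCA or TGAGTCA), which is bound by FOS and JUN proteins.
PDGFC, chr4:157689375-157689574, shared: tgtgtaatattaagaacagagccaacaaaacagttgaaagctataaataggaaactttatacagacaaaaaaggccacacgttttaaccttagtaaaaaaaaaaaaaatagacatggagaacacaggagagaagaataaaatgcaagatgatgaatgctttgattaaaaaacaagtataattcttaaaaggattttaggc
FGF2, chr4:123699215-123699414, shared: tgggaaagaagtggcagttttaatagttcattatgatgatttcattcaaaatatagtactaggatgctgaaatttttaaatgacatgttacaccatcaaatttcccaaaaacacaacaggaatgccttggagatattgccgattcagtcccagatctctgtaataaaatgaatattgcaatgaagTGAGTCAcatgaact
FGF5, chr4:81226632-81226831, shared: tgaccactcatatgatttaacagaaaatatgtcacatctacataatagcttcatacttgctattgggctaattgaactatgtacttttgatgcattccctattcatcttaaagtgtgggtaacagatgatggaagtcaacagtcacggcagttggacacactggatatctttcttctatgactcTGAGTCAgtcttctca
PDGFD, chr11:103918570-103918769, SOX2-only: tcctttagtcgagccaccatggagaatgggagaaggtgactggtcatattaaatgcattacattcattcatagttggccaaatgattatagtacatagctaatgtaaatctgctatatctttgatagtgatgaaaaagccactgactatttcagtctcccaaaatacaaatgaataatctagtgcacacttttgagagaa
PDGFRA, chr4:55051164-55051363, SOX2-only: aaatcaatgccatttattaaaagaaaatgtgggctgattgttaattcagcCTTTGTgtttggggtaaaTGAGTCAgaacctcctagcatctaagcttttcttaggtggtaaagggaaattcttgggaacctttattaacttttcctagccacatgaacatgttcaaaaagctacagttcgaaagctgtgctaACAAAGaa
Of these 5 windows, that of PDGFRA alone held the SOX core motif, with 2 matches, and it also held 1 AP-1 match. The FGF2 and FGF5 windows each held 1 AP-1 match and 0 SOX core matches. The windows of PDGFC and PDGFD held neither. No sequence is shown for FGF7, PDGFRB or FGFR1 here, and FGFR2 had no interval.

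The ligand genes carried most of the SOX2 intervals, and they carried every shared interval found in the 9 windows. The 5 ligand windows held 65 SOX2 intervals, of which 27 were shared (41.5%, Wilson interval 30.4 to 53.7), at 5.53 SOX2 intervals per 100 kb. The ligands differed among themselves, and PDGFD had 0 of 5 shared and FGF7 3 of 17. The 4 receptor windows held 9 SOX2 intervals at 1.29 per 100 kb, and 0 of the 9 were shared (upper Wilson bound 29.9%). That bound lies above the 24.7% of the whole SOX2 list. With flanks of 100 kb in place of 50 kb, PDGFRA gained 1 shared interval and the other receptors none. By chromosome, the 4 members on chromosome 4, PDGFRA among them, had 24 of 47 shared (51.1%, 37.2 to 64.7). The other 5 members had 3 of 27 (11.1%, 3.85 to 28.1). Role and chromosome overlap among these genes, and their parts were not tested. Over all 9 members, 27 of 74 SOX2 intervals were shared (36.5%, 26.4 to 47.9), beside 24.7% (24.3 to 25.0) of the 57833 SOX2 intervals outside the windows. The members' share ranged from 29.9% with flanks of 100 kb to 43.1% for intervals whose nearest protein-coding gene was the member. It was 34.3% in gene bodies alone and 30.8% without PDGFC. Confidence intervals were not computed in these settings, and whether the excess holds in them was not tested.

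Of the 9 members, 8 had at least 1 SOX2 interval and 4 (PDGFC, FGF2, FGF5 and FGF7) had at least 1 shared interval, and 0 had a SOX2-DBD-only interval. Over all protein-coding genes, 69.5% of windows held a SOX2 interval, 37.6% a shared interval and 4.72% a SOX2-DBD-only interval. Long windows hold more intervals, and over the 6701 genes with windows as long as those of the members the shares were 85.4%, 53.8% and 5.98%. The number of members with an interval of each class was therefore close to this background, and what differed was how many intervals the 4 ligands held. Windows of neighbouring genes overlap, so the background genes share intervals with each other.

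The 3 ligands on chromosome 4 held the largest numbers of shared intervals. PDGFC, FGF2 and FGF5 had 11, 7 and 6 shared intervals, and 2.42% of all windows, or 3.25% of those as long as the members', held at least 6. At least 50% of the SOX2 intervals of each were shared, which was so in 6.85% of the 2366 windows with 9 or more SOX2 intervals. The cutoffs of 6 shared intervals, 9 SOX2 intervals and 50% were the lowest values among these 3 genes. That all 3 reached them was therefore fixed in advance, and the background percentages do not measure how unusual the genes are. The 50% mark was not met by all 3 in every setting. In gene bodies alone, 5 of 12 intervals were shared at PDGFC and 2 of 5 at FGF2. In the upper 50% of each list by total signal, FGF2 had 3 of 7 and FGF5 2 of 5. With flanks of 100 kb, PDGFC had 11 of 24 and FGF2 9 of 19. FGF2 also had 3 of 7 where the nearest protein-coding gene was the member. All 3 genes met it in the other settings. Of the chromosome 4 intervals outside the member windows, 23.2% (21.9 to 24.5) were shared. Whether the place of these genes on the chromosome has a part in their counts was not tested. PDGFRA also lies on chromosome 4, and 0 of its 4 intervals were shared.

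**Figure D1:**
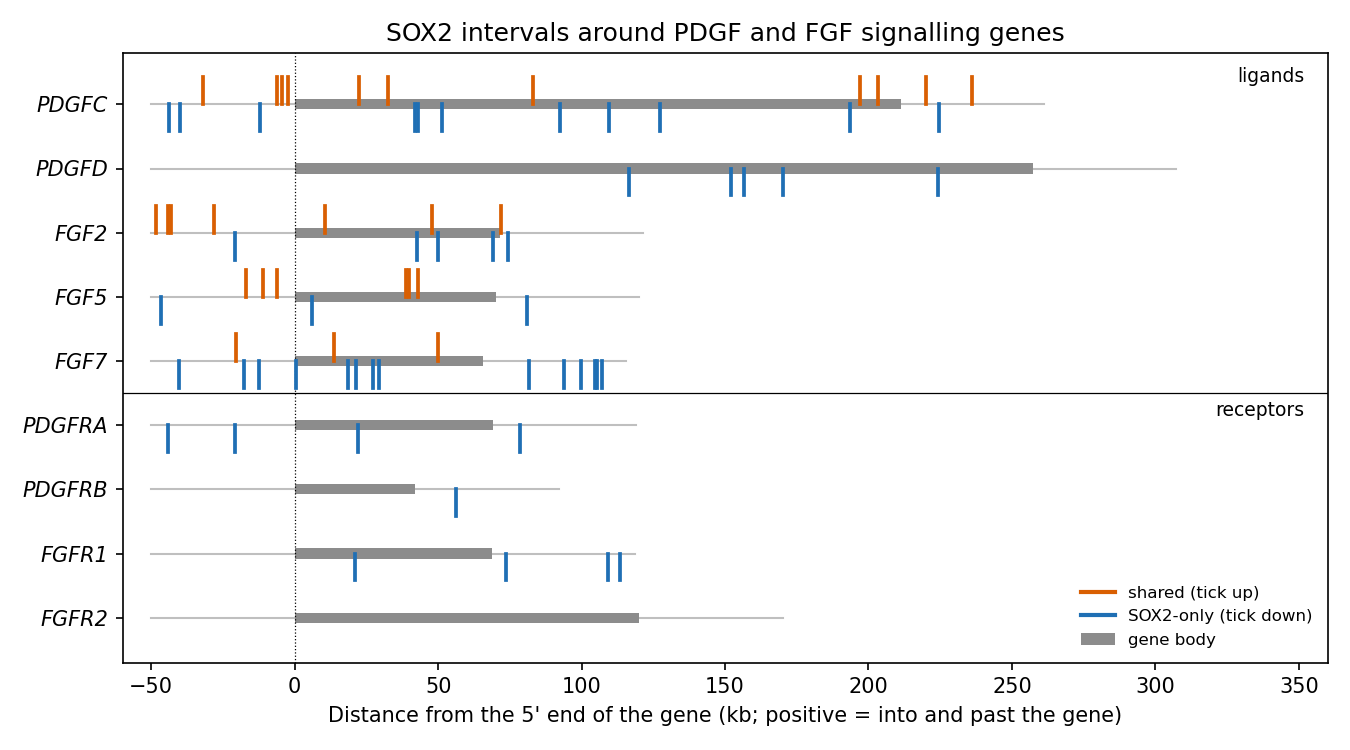
Positions of the 74 intervals around the 9 genes, with the distance of each interval centre from the 5′ end of the gene in kb on the horizontal axis and 1 line per gene. Grey bars are gene bodies, thin lines the 50-kb flanks, ticks upward shared intervals and ticks downward SOX2-only intervals. Upward ticks are seen on PDGFC, FGF2, FGF5 and FGF7, 27 in all, and FGFR2 has no tick.

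PDGFC encodes a PDGF ligand that is secreted in a latent form and activated by removal of its CUB domain. The gene (chr4:157681606-157892951, minus strand) held 22 SOX2 intervals, 11 SOX2-only and 11 shared (50%, 30.7 to 69.3), at 7.07 per 100 kb. A density at least as high was found in 2.83% of protein-coding gene windows. This percentage and those of the other members below are over protein-coding gene windows of any length. Windows as long as the members' were denser, with a median of 2.28 per 100 kb and an upper quartile of 4.06, beside 1.17 and 3.06 for all. PDGFC was the nearest protein-coding gene to each of the 22.

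The PDGFC shared intervals ran from upstream of the gene to beyond its 3′ end, with none between 82.9 and 197 kb from the 5′ end. Upstream of the 5′ end, 4 shared intervals had their centres at 2.40, 4.42, 6.13 and 32 kb from it, with total signals of 1910, 1199, 5033 and 2870. In intron 1 of the canonical transcript, shared intervals lay 22.4, 32.5 and 82.9 kb into the gene, with total signals of 3133, 3595 and 3895. Towards the 3′ end, 1 lay in intron 3 with a total signal of 1496, 1 in intron 4 with 5342 and 2 beyond the gene with 5093 and 1930. For those with 1910, 1496, 5093 and 1930, the region of maximum signal lay at least in part outside the interval.

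The intron 4 interval (chr4:157689147-157689803, 657 bp) had the highest total signal of the 22, and its centre is the PDGFC sequence shown above. The intron 3 interval (chr4:157695970-157696006) was 37 bp wide and lay 358 bp from the start of a shorter PDGFC transcript, the closest of the 22 to any PDGFC start. The PDGFC SOX2-only intervals had total signals from 1219 to 4102 with a median of 2214, and the shared ones from 1199 to 5342 with a median of 3133. The ranges overlapped over most of their length. The highest SOX2-only value (4102) was at chr4:157849723-157850516 in intron 1. No SOX2-only interval lay within 10 kb of the 5′ end, on either side of it, whereas 3 shared ones did.

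PDGFD encodes the other ligand that needs its CUB domain removed, and it signals through the beta receptor. The gene (chr11:103777917-104035107, minus strand) had the longest window, at 357 kb, but 5 SOX2 intervals, or 1.40 per 100 kb, and 47.9% of protein-coding gene windows had at least that density. Among windows as long as the members', the median density was higher, at 2.28 per 100 kb. All 5 were SOX2-only, all lay in introns (3 in intron 1, 1 in intron 3 and 1 in intron 5), and their total signals were 1232, 1689, 2469, 2562 and 2833. The highest was at chr11:103918163-103919177 in intron 1, which was also the closest to a PDGFD transcription start, at 10.9 kb by its centre from the start of a shorter transcript and 116 kb from the 5′ end of the gene. The nearest shared interval lay 101 kb from the gene. PDGFC and PDGFD, which share a domain plan, thus had 11 and 0 shared intervals.

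FGF2 encodes basic FGF, a mitogen of fibroblasts that leaves the cell without a classical signal peptide. The gene (chr4:123747837-123819391, plus strand) held 12 SOX2 intervals, 5 SOX2-only and 7 shared (58.3%, 32 to 80.7), at 6.99 per 100 kb, a density reached by 2.94% of windows. Its shared density of 4.08 per 100 kb was the highest of the 9 members and was reached by 0.471% of windows.

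Upstream of FGF2, 4 shared intervals lay 48.5, 44.2, 43.2 and 28.3 kb before the 5′ end, with total signals of 4879, 1341, 1894 and 3838. For the first 3 of these the nearest protein-coding gene was BBS12. The region of maximum signal of the one with 3838 lay at least in part outside the interval. A pair of shared intervals lay in intron 1, at chr4:123758253-123758618 with a total signal of 2696 and at chr4:123795469-123795765 with 3042, and the former was the FGF2 interval closest to a start, 10.4 kb from the canonical one. The seventh lay past the 3′ end, inside NUDT6, with 2836. The highest value of all 12 belonged to a SOX2-only interval 20.8 kb upstream (chr4:123726652-123727449, total signal 5426). A SOX2-only interval at chr4:123816495-123817129, with a total signal of 2725, had its centre in exon 3 and overlapped an untranslated region, and it was the single centre of the 74 to fall in an exon of a canonical member transcript. NUDT6, a nudix hydrolase gene that overlaps FGF2 on the opposite strand, also contains that centre.

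FGF5 encodes a secreted FGF that ends the growth phase of the hair cycle. The gene (chr4:81187793-81257834, plus strand) held 9 SOX2 intervals, of which 6 were shared (66.7%, 35.4 to 87.9), the highest shared portion among the members. Its density was 5.29 per 100 kb, reached by 8.48% of windows.

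The FGF5 shared intervals formed 2 groups of 3. The upstream group lay 17.0, 10.9 and 6.14 kb before the 5′ end, with total signals of 2123, 1795 and 2786. The other group lay 38.9, 39.7 and 43.1 kb into the gene record, beyond the end of the canonical transcript and within longer transcripts, with total signals of 4187, 3438 and 1241. The strongest of them, at chr4:81226323-81227141, ends close to the next at chr4:81227254-81227741. The 3 SOX2-only intervals had total signals of 1516, 5111 and 6422, so the 2 highest FGF5 values were SOX2-only. The interval with 5111 (chr4:81193116-81194259, intron 1) was the closest to an FGF5 start, at 4269 bp. The one with 6422 (chr4:81268115-81269396) lay in CFAP299, a gene that follows FGF5, and 47.1% of the 31-base words in its central window occurred more than once in the genome.

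FGF7, also called keratinocyte growth factor, is made by mesenchymal cells and acts on the epithelial form of FGFR2. It had the densest window of the members, with 17 SOX2 intervals, or 10.3 per 100 kb, and 0.248% of protein-coding gene windows were at least as dense. The gene (chr15:49715434-49780972, plus strand) lies within FAM227B, which contained all 17 interval centres, and FGF7 was nearest or equally near for 7 of them. Most were SOX2-only: 14, against 3 shared (17.6%, 6.19 to 41.0), so FGF7 had the lowest shared portion of the 4 ligands with a shared interval.

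An FGF7 SOX2-only interval at chr15:49715219-49716405 spanned the 5′ end of the gene. It was 1187 bp wide, its centre fell in intron 1 at 355 bp from a transcription start, it overlapped an untranslated region, and its total signal of 4802 was the highest of the SOX2-only class at FGF7. Of the 74 intervals it was the only one within 1 kb of a canonical member start. Upstream of the gene, 3 SOX2-only intervals had total signals of 3195, 1470 and 3779. Others lay in intron 2 at 18.6, 21.2, 27.4 and 29.4 kb, with total signals of 4771, 1712, 2259 and 1878. Past the 3′ end, 6 SOX2-only intervals had total signals from 1291 to 3487.

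The 3 shared intervals of FGF7 were 37, 64 and 50 bp wide, against a median of 373 bp for all shared intervals, and their total signals were 6696, 2847 and 3919. In each of the 3 the region of maximum signal lay at least in part outside the interval, so the listed stretch and its signal need not describe the same bases. This was so for 8 of the 27 shared intervals of the members, these 3 among them. The first of the 3 (chr15:49695111-49695147) had the highest total signal of all 74 intervals. In its central window 34.1% of the 31-base words occurred more than once in the genome, and in the third 30.6%. None of the 3 was found in the down-sampled SOX2 list, against 7 of the 14 SOX2-only intervals.

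**Figure D2:**
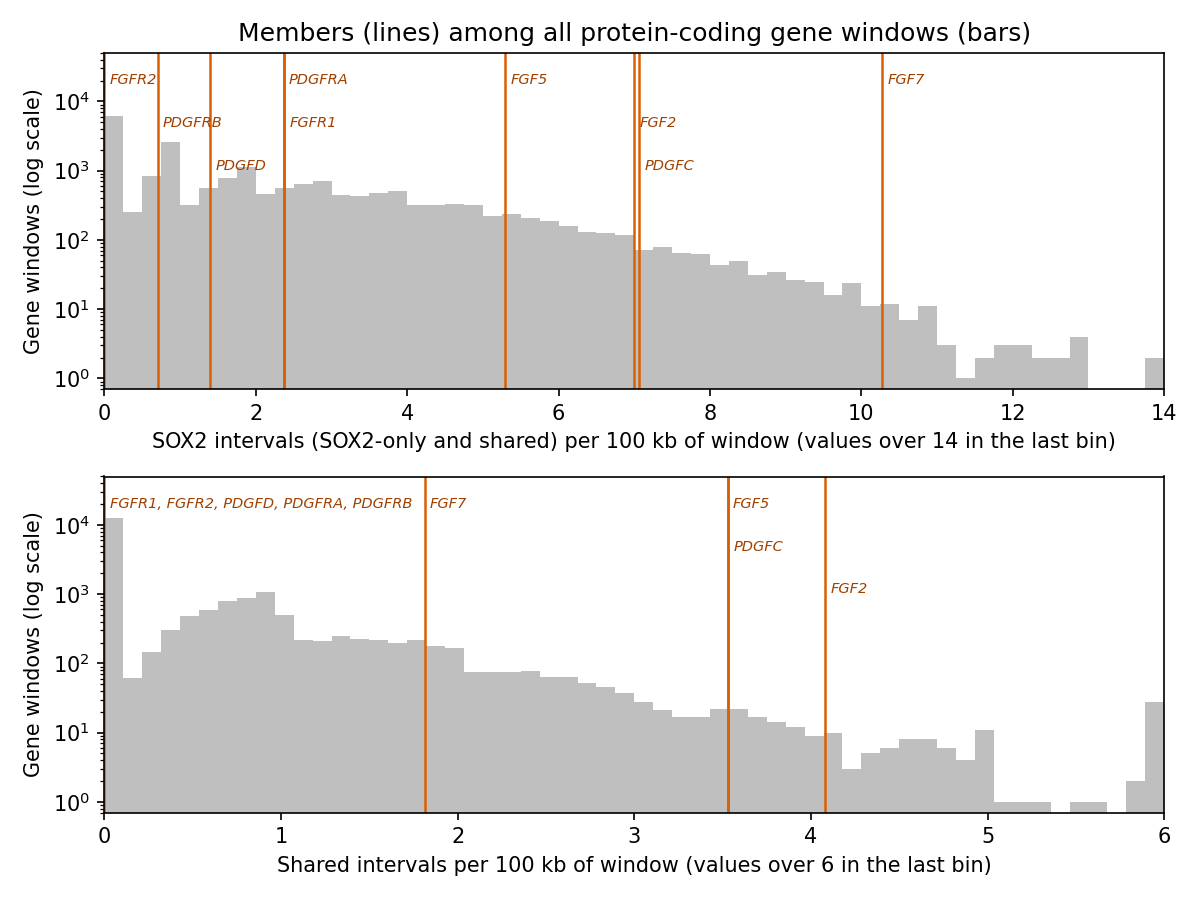
Intervals per 100 kb of window for all 20163 protein-coding genes (grey bars, number of genes on a log axis) with the 9 members as orange lines, for all SOX2 intervals above and for shared intervals below. Among the members FGF7 lies farthest right above at 10.3 and FGF2 farthest right below at 4.08, while 5 members lie at 0 shared intervals.

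Among the receptors, PDGFRA encodes the alpha receptor that binds most PDGF ligands and marks many fibroblasts. The gene (chr4:55095447-55164412, plus strand) had 4 intervals, all SOX2-only, at 2.37 per 100 kb, which 33.4% of protein-coding gene windows reached. That density was close to the median of 2.28 for windows as long as the members'. The total signals of the 4 intervals were 6355, 1405, 3879 and 3313. The highest lay 44.2 kb upstream of the 5′ end (chr4:55050802-55051725) and was the third highest of the 74. A further protein-coding gene model, listed without a symbol, contained the centres of this interval, of the other upstream one and of the one in intron 1, and it was the nearest coding gene to both upstream intervals. The value of 3879 belonged to an interval in intron 1 (chr4:55117338-55117885), 7870 bp from the nearest PDGFRA start. The nearest shared interval lay 63.4 kb from the gene.

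PDGFRB encodes the beta receptor, the receptor of pericytes and fibroblasts for PDGF-B and PDGF-D. The gene (chr5:149493402-149535435, minus strand) had 1 interval, SOX2-only, with a total signal of 1959, and 65.0% of windows were at least as dense. It lay 14.2 kb past the 3′ end at chr5:149478941-149479251, inside CSF1R, which encodes the receptor of macrophage colony-stimulating factor. No interval therefore touched the PDGFRB gene itself.

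FGFR1 encodes an FGF receptor common in mesenchymal cells. The gene (chr8:38257733-38326352, minus strand) had 4 SOX2-only intervals with total signals of 2979, 1757, 1334 and 1261. Only the last lay in the gene, at chr8:38305338-38305606 in intron 2. The others lay past the 3′ end, 2 in NSD3 and 1 in LETM2, and the LETM2 interval (chr8:38252547-38252823) was the closest to an FGFR1 start, at 6516 bp from that of a short transcript. The nearest shared interval lay 371 kb away.

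FGFR2 encodes the receptor whose epithelial splice form binds FGF7. No interval of either list lay in its window (chr10:123187846-123407972), and the nearest SOX2 interval was 141 kb from the gene. At least 1 SOX2 interval was found in 85.4% of windows of the members' range of length. The ligand FGF7 and its receptor FGFR2 thus held the highest and the lowest density of the 9.

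**Figure D3:**
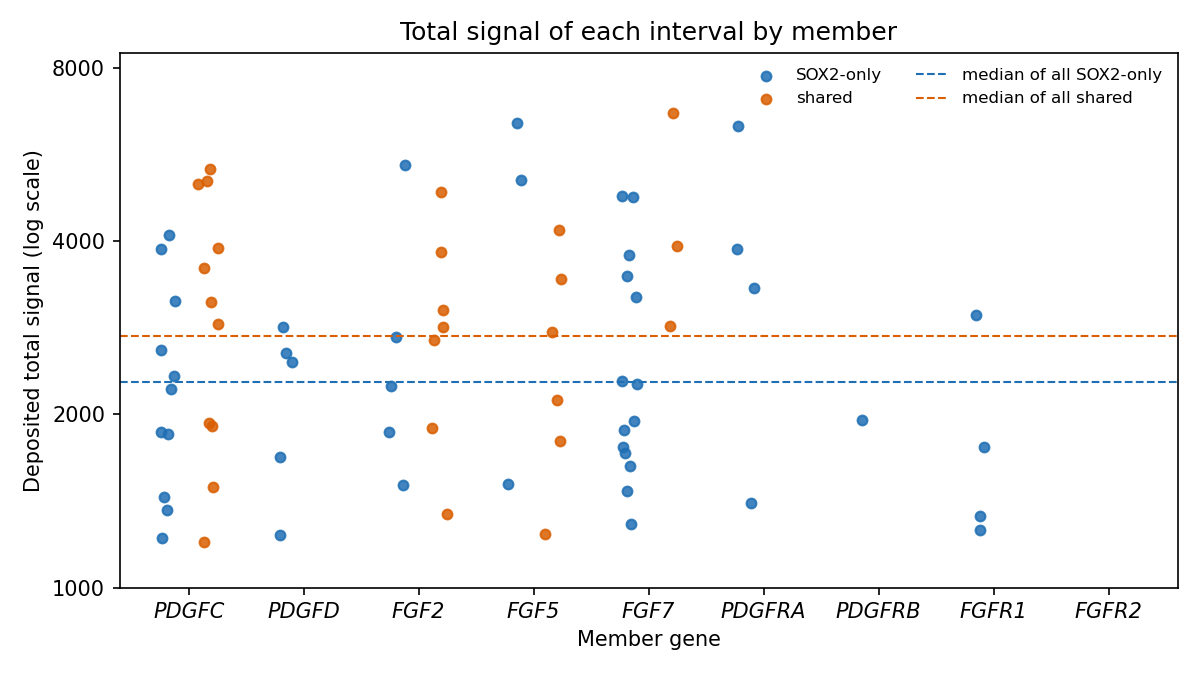
Deposited total signal of each of the 74 intervals on a log axis, by member, with SOX2-only intervals in blue, shared intervals in orange and the medians of all SOX2-only (2278) and all shared (2742) intervals as dashed lines. At PDGFC, FGF2 and FGF5 points of both classes lie above and below the medians, and the 3 shared points of FGF7 lie above both lines.

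Signal and width in the windows resembled those of the whole lists. The 47 SOX2-only intervals had a median total signal of 2244 (interquartile range 1656 to 3254), beside 2278 (1665 to 3260) for all SOX2-only intervals. The 27 shared intervals had a median of 2870 (1920 to 3907), beside 2742 (1891 to 4050.2). Median widths were 564 bp for SOX2-only and 381 bp for shared intervals in the windows, beside 559 and 373 bp overall. The down-sampled SOX2 list contained 43 of the 74 (58.1%, 46.7 to 68.7), beside 64.3% of all SOX2 intervals.

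By position, 35 of the 74 interval centres lay inside a member gene (47.3%, 36.3 to 58.5), 22 in the 5′ flank and 17 in the 3′ flank. The shared and SOX2-only classes did not differ beyond counting error, with 12 of 27 (44.4%, 27.6 to 62.7) and 23 of 47 (48.9%, 35.3 to 62.8) inside. Of the 35, 31 lay in introns of the canonical transcript. Coding sequence was overlapped by 0 of the 74 intervals. A transcription start of the member, counting every transcript, lay within 1 kb of 2 centres and within 5 kb of 7. Another protein-coding gene contained 28 of the centres, and for 51 the member was the nearest protein-coding gene, so an interval in a window need not belong to the member.

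The SOX core motif was less frequent at the interval centres of these genes than at those elsewhere. In the 200-bp windows at interval centres it was present in 21 of 74 (28.4%, 19.4 to 39.5), beside 47.3% (46.9 to 47.7) of SOX2 intervals outside the windows. Windows of the same size 10 kb downstream of the 74 held it in 20.3% (12.7 to 30.8), beside 27.7% (27.3 to 28.1) downstream of the intervals elsewhere, whose mean GC content was 39.5% against 35.7% for the members' downstream windows. At the centres the share was 29.8% (18.7 to 44) in SOX2-only and 25.9% (13.2 to 44.7) in shared intervals, beside 46.9% and 48.4% of those classes elsewhere.

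Where the window was placed mattered for this motif. Over whole intervals it was present in 26 of 47 SOX2-only intervals (55.3%, 41.2 to 68.6), beside 80.7% elsewhere, and in 15 of 27 shared ones (55.6%, 37.3 to 72.4), beside 66.1%. In windows on the region of maximum signal it was present in 31 of 74 (41.9%, 31.3 to 53.3), an interval that contains the 49.0% found elsewhere. For shared intervals that setting gave 51.9% (34.0 to 69.3), beside 50.2% elsewhere, and for SOX2-only intervals 36.2% (24.0 to 50.5), beside 48.6%. In 8 of the 27 shared intervals that region lay at least in part outside the interval, so the window need not lie on the listed stretch. The lower share at centres was thus outside counting error over whole intervals for the SOX2-only class alone, and on the region of maximum signal for neither class. Mean GC content at the centres was 33.5% in the member windows and 33.9% over all SOX2 intervals.

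The counts by member were small, and the differences between members were not tested. The motif was present at the centre in 7 of the 17 FGF7 intervals, 7 of the 22 of PDGFC, 2 of the 12 of FGF2, 1 of the 9 of FGF5, 0 of the 5 of PDGFD, 1 of the 4 of PDGFRA, 0 of 1 at PDGFRB and 3 of the 4 of FGFR1.

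The AP-1 motif was present in 7 of 27 shared centre windows (25.9%, 13.2 to 44.7) and 3 of 47 SOX2-only ones (6.38%, 2.19 to 17.2), beside 16.9% and 6.59% of the same classes elsewhere. Downstream windows of the 74 held it in 2.70% (0.744 to 9.33). The confidence intervals of the classes overlap, and the shared value did not differ from that of shared intervals elsewhere beyond counting error. The 7 shared windows were at FGF2 (3), FGF5 (2) and PDGFC (2). In 100-bp windows it was present in 2 of 27 shared (7.41%, 2.06 to 23.4) and 3 of 47 SOX2-only intervals (6.38%, 2.19 to 17.2), so the classes of the members were close in that setting. The shares elsewhere in that setting were 9.08% and 3.28%, each within the Wilson interval of the members. In the 200-bp windows the order of classes is that of the whole lists, so these genes give no independent evidence of it.

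**Figure D4:**
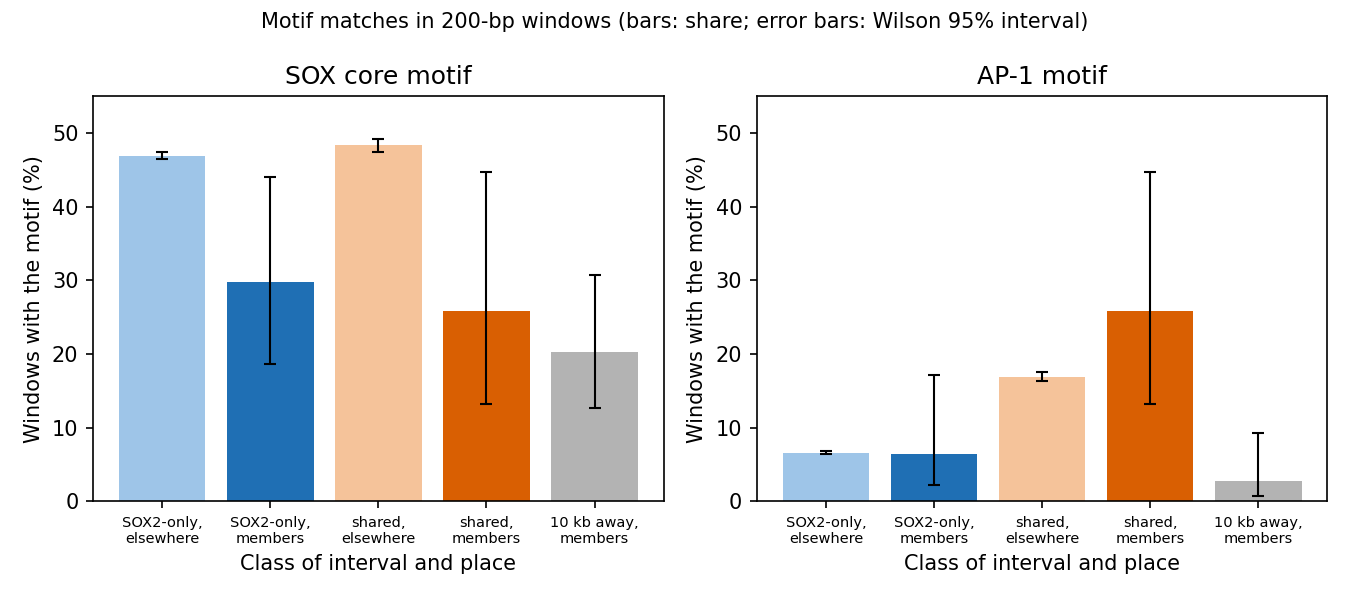
Share of 200-bp windows that held the SOX core motif (left) or the AP-1 motif (right), in percent, with Wilson 95% intervals as error bars, for SOX2-only and shared intervals in the member windows and elsewhere and for windows 10 kb downstream of the members' intervals. The SOX core bars of the members (29.8% and 25.9%) stand below those elsewhere (46.9% and 48.4%), and the tallest AP-1 bar is that of the members' shared intervals (25.9%).

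Of the 27 shared centre windows, 2 held both motifs, 5 the SOX core motif alone, 5 the AP-1 motif alone and 15 neither. The 2 with both are shown with the same capitals so that the places of the motifs can be read, and they were chosen after their values were seen. How often both occur in shared intervals elsewhere was not counted.
FGF2, chr4:123758336-123758535, shared: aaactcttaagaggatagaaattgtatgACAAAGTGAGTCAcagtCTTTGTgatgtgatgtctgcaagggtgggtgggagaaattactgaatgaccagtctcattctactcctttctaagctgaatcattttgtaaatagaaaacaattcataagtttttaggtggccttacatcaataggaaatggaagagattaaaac
PDGFC, chr4:157860337-157860536, shared: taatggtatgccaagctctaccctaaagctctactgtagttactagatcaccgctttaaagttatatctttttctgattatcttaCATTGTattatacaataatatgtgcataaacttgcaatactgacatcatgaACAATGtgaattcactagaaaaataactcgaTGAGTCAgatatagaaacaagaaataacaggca
The FGF2 window, from the intron 1 interval 10.6 kb into the gene, held 2 SOX core matches and 1 AP-1 match, and the first SOX core match runs directly into the AP-1 match, which gives 1 stretch of capitals. The PDGFC window, from the intron 1 interval 32.5 kb into the gene, held 2 SOX core matches and 1 AP-1 match with other bases between them.

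A longer SOX motif (AACAATGG or AACAATAG, on either strand) was found in 0 of the 74 centre windows. The upper Wilson bound was 4.93%, and the share of SOX2 centre windows elsewhere was 3.62%, so the difference was within counting error. Over whole intervals it was found in 3, at PDGFC, FGF2 and FGF7, and the share elsewhere was not counted. All 3 were SOX2-only, as were 47 of the 74 intervals. The PDGFC and FGF7 intervals are shown as 60 bases around a match with the match in capitals.
PDGFC, chr4:157800733-157800792, SOX2-only: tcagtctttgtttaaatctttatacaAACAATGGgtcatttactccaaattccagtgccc
FGF7, chr15:49814844-49814903, SOX2-only: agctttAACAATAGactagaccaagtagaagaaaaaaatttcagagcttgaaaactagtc
The PDGFC interval, in intron 1 with a total signal of 2586, held 2 matches, of which 1 is shown. The FGF2 interval, in intron 1 with a total signal of 1861, was the one interval of the 74 in which over 50% of the 31-base words of the central window (57.1%) were repeated in the genome. The FGF7 interval, past the 3′ end with a total signal of 1291, had the lowest total signal of the 17 at that gene.

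Of the other motifs sought in the 74 centre windows on both strands, the forkhead sequence TGTTTAC was present in 5.41%, the TEAD sequence ACATTCC in 5.41%, the RUNX sequence TGTGGTT in 2.70% and the octamer ATGCAAAT in 1.35%. The shares elsewhere were 4.34%, 6.12%, 5.92% and 2.93%, each within the Wilson interval of the members. A match describes the letters in the window and shows no binding by the factor.

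The seventh column of the SOX2 list, filled in for shared rows alone and without a stated meaning, was at least 1 in 9 of the 27 shared intervals (33.3%, 18.6 to 52.2), beside 34.5% of all shared intervals. The 9 were at PDGFC (4), FGF2 (3) and FGF5 (2), and each had the value 1.

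A list of 38 other genes of these pathways was examined by the same rule. Of the 38, 28 (73.7%) had a SOX2 interval, 18 (47.4%) a shared interval and 7 (18.4%) a SOX2-DBD-only interval. Over all protein-coding gene windows the shares given above were 69.5%, 37.6% and 4.72%, and over windows as long as the members' 85.4%, 53.8% and 5.98%. The SOX2 and shared values of the 38 lay between these backgrounds, and the SOX2-DBD-only value lay above both. Neither background was matched to the lengths of the 38 windows, and the differences were not tested. Their median density was 1.67 SOX2 intervals per 100 kb, beside 1.17 for all protein-coding genes and 2.28 for those with windows as long as the members', and 35 of their 163 SOX2 intervals were shared (21.5%). The 7 with a SOX2-DBD-only interval were PIK3CA, ETV1, FRS2, PIK3R1, SPRED1, SPRY2 and SHC1, named after their values were seen.

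None of the other genes of the ligand families had the 6 or more shared intervals of PDGFC, FGF2 and FGF5. At least 6 were held by 2.42% of all protein-coding gene windows, so a count of none is near that share. The 10 other genes of the PDGF and FGF ligand families held 18 SOX2 intervals, of which 3 were shared, 1 each at FGF1, FGF18 and FGF20. FGF14 belongs, with FGF12 and FGF13, to the subfamily that stays inside the cell. FGF14 held 9 of the 18 intervals, all SOX2-only, and PDGFB, FGF9, FGF10, FGF12 and FGF13 had none. At the 4 other receptor or receptor-like genes (PDGFRL, FGFR3, FGFR4 and FGFRL1) there were 6 SOX2 intervals and 0 shared ones. At least 1 shared interval was held by 37.6% of all protein-coding gene windows, so most windows had none.

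Inside the cell, the densest windows were those of PIK3CA, the catalytic subunit of PI3K, with 21 SOX2 intervals at 10.9 per 100 kb, of DUSP6, the phosphatase that turns off ERK, with 9 at 8.55, and of SOS1, the exchange factor that activates RAS, with 16 at 6.10. Of these, 4, 3 and 3 were shared. The feedback inhibitors (SPRY, SPRED and DUSP genes) had 8 shared of 30 SOX2 intervals (26.7%). The ETS factors ETV1, ETV4 and ETV5 had 5 of 16 (31.2%), all 5 at ETV1, and the genes that relay the signal had 18 of 92 (19.6%). Over the whole SOX2 list 24.7% were shared, and these differences were not tested.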

How the data were processed

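Peak lists of replicate 1 of each group were used, as deposited. Interval positions, total signal and maximum signal are the authors' values, in hg19. Bowtie2 2.3.4.1, SAMtools, bedtools 2.27.1, SEACR 1.3 and deepTools 3.5.0 are named, without roles, in the submitters' processing notes; threshold, depth and pooling are not given in the sources used here. Signal coverage values in the deposited lists were not renormalized and were compared within a list.

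Exact duplicate rows were dropped, and an interval was shared where both lists held the same positions. Windows were gene bodies (GENCODE release 44 mapped to GRCh37) plus 50 kb. Motifs were sought on both strands in 200-bp windows. Repeats were 31-base words occurring more than once in GRCh37. The genes and lists were chosen with earlier results of these data known. Intervals named were, per gene, the highest total signal of each class, the one nearest a transcription start, and those with the longer SOX motif; others were named after their values were seen. Some sequences that this rule would print are not reported here. Other pathway genes were named where among the 3 densest, or otherwise as stated. Alternatives covered window, overlap, signal, merging, duplicates, nearest gene and motif window. Code was tested on simulated data. The software was matplotlib 3.10.9, numba 0.67.0, numpy 2.4.6, pandas 2.3.3, scipy 1.17.1 and python 3.11.15.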

Additional observations from a re-analysis of the deposited data

How the results depend on the processing

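No paired analysis was possible because only replicate 1 of either group had a list, and for that reason no replicate could be left out. Of 49 alternative values, 38 stayed within the confidence interval, or within 1.5 times the count, of the reported value and 11 moved. Gene bodies alone gave 35 intervals at the 9 members and 18 of the other pathway genes with a SOX2 interval, and the upper 50% of each list by total signal gave 38 intervals at 2.03 per 100 kb, by construction of the settings. Counting only intervals whose nearest protein-coding gene is the member gave 2.72 per 100 kb. Flanks of 100 kb put 32.7% of centres inside a member and gave PDGFRA a shared interval, so that 5 members and 1 receptor had one. In every other setting of the count of shared intervals the receptors had 0. The SOX core share was 14.9% in 100-bp windows (26.8% at all SOX2 intervals), 41.9% on the region of maximum signal (48.9%), 55.4% over whole intervals (77.1% outside the windows) and 0% with AACAATGG or AACAATAG (3.62% outside), and the AP-1 share was 6.76% in 100-bp windows (4.71% at all). The whole-interval setting and the settings without PDGFC, FGF7 or FGF2 were added after the data were seen. Unknown depth limits every count.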
